A study of Mus musculus with 4 samples.

Results

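The genes described here are the 2 cannabinoid receptors and the 6 enzymes that make and degrade the main endocannabinoids, 8 genes of the 25044 entries in the tables. They were chosen by name, and all 8 were matched through their Ensembl identifiers. RNA sequencing had been done on parasubthalamic nucleus tissue of naive mice of the inbred strain C57BL/6, and the 4 libraries, replicates 1 to 4, form 1 group. No stressed animals were sequenced, and no allele, agent or age is given in the labels. The parasubthalamic nucleus is a small group of cells at the border of the lateral hypothalamus and the subthalamic nucleus. With 1 group, genes were compared with each other inside each library, and libraries with each other. Levels are taken to be FPKM, which scale fragments by transcript length and depth; the unit was read from the values and is named in no label or header. Libraries stood apart by markers of other regions. Thalamus markers were high in replicate 3, and medial hypothalamus markers summed to 175 FPKM in replicate 2 against 8.73 to 28.8 FPKM elsewhere. Markers of spinal cord and caudal hindbrain summed to 16.5 FPKM in replicate 1 against 0.0745 to 0.361 FPKM elsewhere. The 5 midbrain dopamine markers were abundant in every library, with sums of 496, 927, 509 and 479 FPKM in replicates 1 to 4. The 4 parasubthalamic markers summed to 466, 328, 293 and 408 FPKM in the same order.

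Endocannabinoids are lipid messengers that nerve cells make on demand from membrane lipids. The best known are 2-arachidonoylglycerol (2-AG) and anandamide, and in most circuits they pass backwards across the synapse to the receptor CB1 on the axon terminal, where they lower transmitter release. In the hypothalamus and its borders this system is known for its part in feeding, stress responses and anxiety. 2-AG is made by diacylglycerol lipases and degraded mainly by monoacylglycerol lipase, and anandamide can be made by a phospholipase D and is degraded by a fatty acid amide hydrolase.

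The promoters of 4 members are shown because they cover the most and the least CpG-rich windows near the annotated starts of the receptors and of the degrading enzymes. RefSeq promoter windows on GRCm38.p6, 250 bases before to 50 after a start, were found for 7 of the 8 members and not for Dagla. Each is given 5′ to 3′ on the gene's own strand, with CG dinucleotides in capitals. The Cnr1 window is chr4:33924394-33924693 on the plus strand and the Cnr2 window chr4:135894939-135895238 on the plus strand. The Mgll window is chr6:88724162-88724461 on the plus strand and the Faah window chr4:116017875-116018174 on the minus strand.
Cnr1: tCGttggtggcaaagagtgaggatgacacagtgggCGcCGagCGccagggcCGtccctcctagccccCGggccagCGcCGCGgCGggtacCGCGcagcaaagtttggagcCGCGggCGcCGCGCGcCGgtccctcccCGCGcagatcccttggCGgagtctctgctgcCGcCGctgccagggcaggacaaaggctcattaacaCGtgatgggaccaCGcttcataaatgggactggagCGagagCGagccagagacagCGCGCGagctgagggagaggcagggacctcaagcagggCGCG
Cnr2: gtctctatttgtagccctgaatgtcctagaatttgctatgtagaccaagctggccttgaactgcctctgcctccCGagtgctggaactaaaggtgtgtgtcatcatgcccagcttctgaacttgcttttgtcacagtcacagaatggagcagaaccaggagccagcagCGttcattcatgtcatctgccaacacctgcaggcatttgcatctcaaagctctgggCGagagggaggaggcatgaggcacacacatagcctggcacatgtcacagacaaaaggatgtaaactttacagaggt
Mgll: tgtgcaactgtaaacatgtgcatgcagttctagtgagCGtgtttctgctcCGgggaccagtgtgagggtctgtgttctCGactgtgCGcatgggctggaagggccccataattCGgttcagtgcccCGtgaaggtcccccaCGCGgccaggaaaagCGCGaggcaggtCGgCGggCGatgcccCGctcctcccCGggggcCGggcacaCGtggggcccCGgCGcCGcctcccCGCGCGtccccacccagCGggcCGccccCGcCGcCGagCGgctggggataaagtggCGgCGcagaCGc
Faah: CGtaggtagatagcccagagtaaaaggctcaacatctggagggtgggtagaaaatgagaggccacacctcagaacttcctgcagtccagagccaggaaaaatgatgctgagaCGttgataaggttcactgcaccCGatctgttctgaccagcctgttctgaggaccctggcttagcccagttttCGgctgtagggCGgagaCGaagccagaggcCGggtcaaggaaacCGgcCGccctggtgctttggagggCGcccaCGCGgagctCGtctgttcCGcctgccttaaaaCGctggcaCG

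The Cnr1 window held 33 CG dinucleotides and the Mgll window 32, against a median of 7 over 32851 promoter windows of the same length. The Faah window held 16 and the Cnr2 window 3. The remaining members lay between these, with 28 for Napepld, 24 for Abhd6 and 11 for Daglb in the window nearest the annotated start. Among all windows, 92.3% had as few CG dinucleotides as that of Cnr1 or fewer, and 31.4% as few as that of Cnr2 or fewer. Of 12 member windows, 6 held the GC box GGGCGG on either strand, as did 35.7% of all windows. These windows belong to Cnr1, Mgll, Abhd6 and Faah, and the 2 Abhd6 windows overlap, so the windows are not independent. Cnr1 has 3 windows, and the box lay in 1 that is not shown, with 40 CG dinucleotides, and not in the window shown. A second Mgll window, also not shown, held 42. The E-box CACGTG was in 1 window of Cnr1 and 1 of Mgll and in 7.15% of all windows. The cAMP response element TGACGTCA and the TATA motif TATAAA, on either strand, were in none of the 12 member windows, and in 1.79% and 13.6% of all windows. These are counts of letters in a window and do not show binding.

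Cnr1, which encodes CB1 and lies on chromosome 4 from 33924593 to 33948831, was the receptor detected. It had 14.6, 13.2, 11.5 and 14.5 FPKM in replicates 1 to 4, a mean of 13.4 ± 1.46 FPKM (SD, n = 4). Replicate 3 was the lowest and the highest library was 1.27-fold above it. By mean level Cnr1 stood at percentile 67.7 of the 15383 genes tested, those with a mean of 0.1 FPKM or more. In bulk tissue, fewer cells with a transcript and less of it per cell cannot be told apart.

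Cnr2, which encodes CB2, the receptor known mainly from immune cells, was close to nothing. Replicates 1 to 4 listed it at 0.0926, 0.0518, 0.0384 and 0.0327 FPKM. At the depth implied by the spacing of low values, 19800000 to 21100000 fragments per library, this would be 2.55 to 7.55 fragments a library. That is a rough estimate for the longest annotated transcript, since reads were not recovered. Cnr2 therefore failed the filter on level and is not among the 7 members tested. Cnr1 exceeded Cnr2 by between 158-fold in replicate 1 and 443-fold in replicate 4. With no filter on level, the log2 difference of Cnr2 from Cnr1 was -6.47 (SE 0.12, adjusted p = 9.04e-07 in limma), on a scale with 0.1 FPKM added, which understates it.

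The low Cnr2 level stood beside microglial transcripts that were present in every library. The 5 microglia markers summed to between 73.0 and 89.7 FPKM, with the purinergic receptor gene P2ry12 at 12.5 to 12.9 FPKM. The 5 markers of T and B cells summed to 0.579, 0.0701, 0.151 and 0 FPKM in replicates 1 to 4, and Ms4a1 was listed at 0 throughout. Cnr2 and this sum were both highest in replicate 1, and the part of such cells in the Cnr2 level was not tested.

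Of the diacylglycerol lipases that make 2-AG, Dagla encodes the main form of the adult brain. Dagla (chromosome 19, 10245265 to 10304877) had 7.36, 7.62, 11.7 and 7.48 FPKM in replicates 1 to 4. Replicate 3 lay far above the others, which differed little. Daglb (chromosome 5, 143464584 to 143505942), the second form, known from microglia and macrophages among other cells, had 6.27, 6.85, 7.20 and 6.28 FPKM in the same order. It had the smallest relative spread of the 8 members, with a coefficient of variation of 6.88% against 24.7% for Dagla. The span of Daglb overlaps that of Rac1 on the other strand by 2309 bases, and Rac1 was at 93.5 to 103 FPKM. The use of strand in counting is not given, so reads from that stretch cannot be told apart.

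The ratio of Dagla to Daglb was 1.17, 1.11, 1.62 and 1.19 in replicates 1 to 4, above 1 in all 4 libraries. The mean log2 difference of Dagla from Daglb was 0.33. In limma it passed with Daglb as the reference gene (SE 0.11, adjusted p = 0.0380) and not with Dagla as the reference (SE 0.18, adjusted p = 0.143), so the call depends on the side from which it is made. Without replicate 3 the difference was 0.21 and passed from both sides, with the larger adjusted p at 0.0362 in limma.

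Among the members, transcripts of the enzymes that degrade 2-AG were more abundant per length than those of the enzymes that make it. Mgll, the monoacylglycerol lipase gene (chromosome 6, 88724412 to 88828360), had 11.4, 11.5, 14.1 and 14.4 FPKM in replicates 1 to 4. Replicates 3 and 4 were above replicates 1 and 2. Abhd6, whose product is a serine hydrolase of the postsynaptic side (chromosome 14, 8002902 to 8056763), had 14.1, 13.7, 17.9 and 13.2 FPKM and the highest mean of the 8 members, 14.7 ± 2.18 FPKM (SD, n = 4). Replicate 3 was again above the others.

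Summed, the degrading enzymes Mgll and Abhd6 had 25.5, 25.2, 32.0 and 27.5 FPKM, and the making enzymes Dagla and Daglb 13.6, 14.5, 18.9 and 13.8 FPKM. Per length these sums did not overlap, but the gap depends on the length scaling. By the rough estimate of fragments, replicate 3 held 1111 of Mgll and 791 of Abhd6, against 1305 of Dagla and 696 of Daglb. There the making enzymes were ahead together. In replicate 4, with 1158 and 591 against 852 and 619, they were not. How often sums of other genes lie this far apart was not computed. In limma Mgll was higher than Dagla by a log2 difference of 0.60 (1.52-fold, higher in 4 of 4 libraries), with adjusted p = 0.0296 with Dagla and 0.0103 with Mgll as the reference gene. Of all genes, 33.9% passed as higher than Dagla and 60.1% as lower than Mgll. Abhd6 was higher than Dagla by 0.80 (adjusted p = 0.00651 with Dagla as the reference, limma). The call for Mgll over Dagla did not hold without replicate 1 (0.59), replicate 2 (0.61) or replicate 4 (0.49). Without length correction Mgll over Dagla did not pass at 0.11, and Abhd6, whose longest annotated transcript of 2226 bases is the shortest of the 8 members, fell below Dagla at -0.53. Mgll and Abhd6 were not separated by the test, with a log2 difference of Abhd6 from Mgll of 0.19 (SE 0.13, adjusted p = 0.198, limma, higher in 3 of 4 libraries).

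For anandamide, the degrading member also exceeded the making member in transcript level. Genes of other routes to anandamide, described below, were not part of this comparison. Faah, the fatty acid amide hydrolase gene (chromosome 4, 115967145 to 116017926), had 8.43, 9.67, 13.1 and 10.7 FPKM in replicates 1 to 4. Napepld, which encodes a phospholipase D that releases anandamide from its membrane precursor (chromosome 5, 21662901 to 21701396), had 5.68, 5.42, 8.29 and 5.16 FPKM. Both were highest in replicate 3, and the lowest Faah value lay just above the highest Napepld value. Within libraries Faah was 1.48-fold, 1.78-fold, 1.58-fold and 2.07-fold above Napepld. The log2 difference was 0.77, with adjusted p = 0.00907 with Napepld and 0.00726 with Faah as the reference gene in limma, and it passed under all alternatives tried, at 0.68 to 1.25. Of all genes, 42.2% passed as higher than Napepld and 52.1% as lower than Faah.

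**Figure D1:**
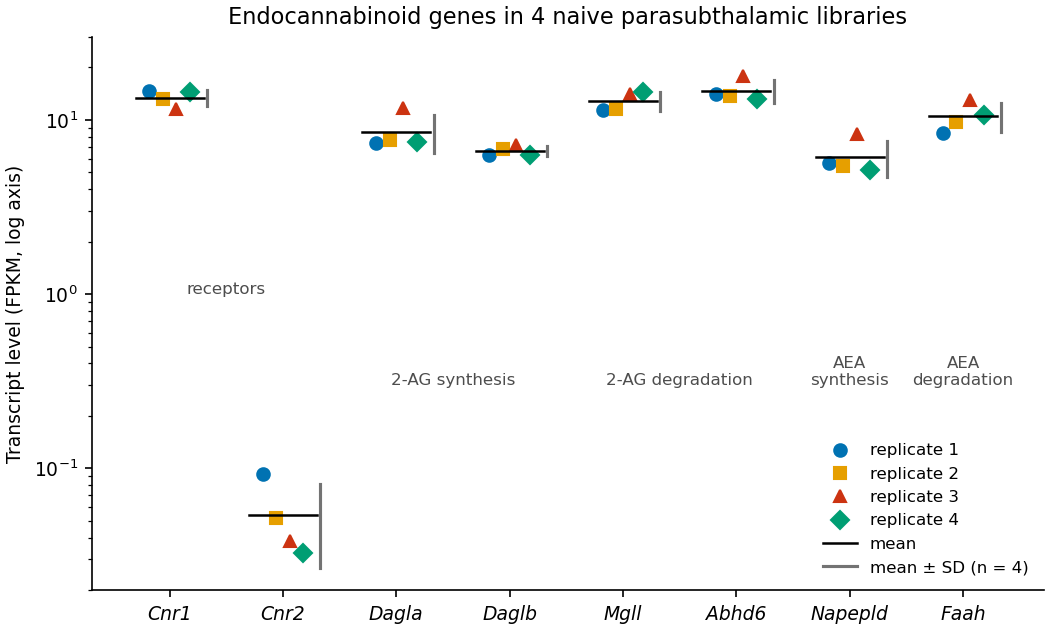
Levels in FPKM, on a log axis, of the 8 endocannabinoid genes by role in the 4 naive libraries; symbols are libraries, black lines means and grey bars mean ± SD (n = 4). AEA is anandamide. Cnr2 lies at 0.0327 to 0.0926 FPKM, while the other 7 genes have means between 6.14 and 14.7 FPKM.

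Set against Cnr1 within the libraries, 3 of the 6 enzymes were lower, none was higher and 3 did not pass. Among all 15382 other genes tested, 62.4% were lower than Cnr1 and 27.4% were higher, so 3 of 6 is no larger a share than that of genes in general. Napepld had a log2 difference from Cnr1 of -1.14 (2.20-fold lower, SE 0.19, adjusted p = 0.00261, limma) and Daglb, whose mean was 6.65 FPKM, also passed as lower (SE 0.12, adjusted p = 0.000702, limma). Each was below Cnr1 in 4 of 4 libraries. Dagla was at -0.67 (SE 0.20, adjusted p = 0.0229, limma) and below Cnr1 in 3 of 4 libraries, since it reached 11.7 FPKM against 11.5 FPKM of Cnr1 in replicate 3. Dagla did not pass without replicate 1 (-0.57), 2 (-0.63) or 4 (-0.58), but did without replicate 3 (-0.90).

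The other enzymes lay near Cnr1. Abhd6 was at 0.13 (adjusted p = 0.467, higher in 2 of 4 libraries), Mgll at -0.07 (adjusted p = 0.635, higher in 1 of 4) and Faah at -0.37 (adjusted p = 0.0958, higher in 1 of 4), all in limma. In each case the library above Cnr1 included replicate 3. Without that library Faah passed as lower at -0.55 and the sign of Abhd6 turned to -0.045. Without replicate 1 the sign of Mgll turned to 0.027. Without length correction Mgll and Abhd6 passed as lower, at -0.61 and -1.25, and 5 enzymes in all were lower. An exact permutation of signs over 4 libraries cannot give a two-sided p below 0.125, so the calls rest on the limma model, which adds to each gene's own spread that of all genes.

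**Figure D2:**
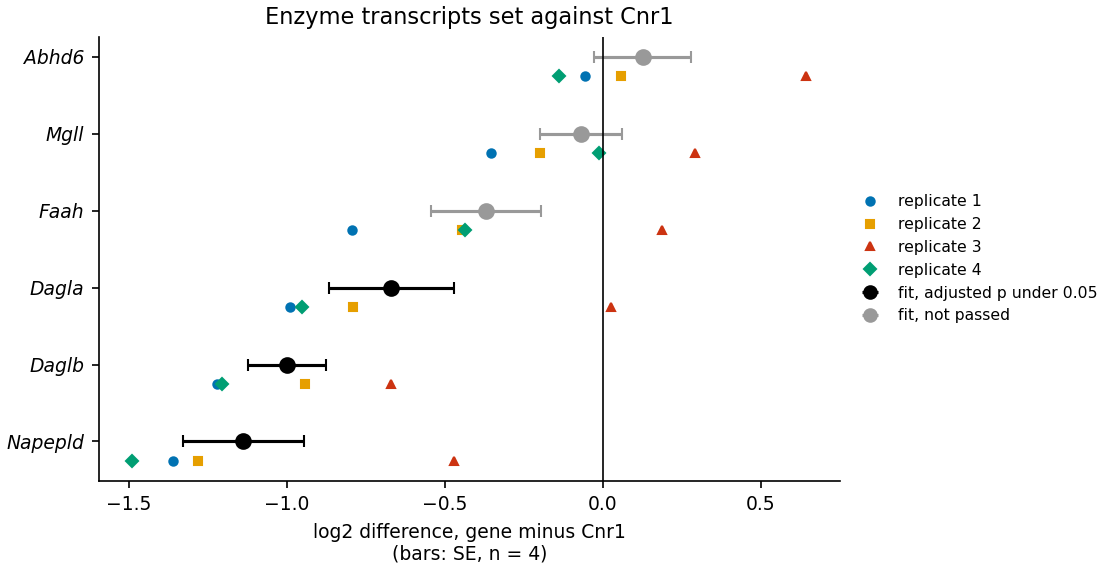
Difference of each enzyme gene from Cnr1 within libraries on the log2 scale; large points are limma estimates with SE (n = 4), black where the adjusted p is under 0.05, and small symbols are single libraries from FPKM without an added value. Replicate 3 lies farthest to the right for every gene, and Napepld and Daglb lie left of 0 in all 4 libraries.

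By mean level the order was Abhd6, Cnr1, Mgll, Faah, Dagla, Daglb and Napepld, with Cnr2 far below. None of the 6 pairs of neighbours among the 7 genes tested passed from both sides. Mgll against Faah, at a log2 difference of 0.30, passed with Mgll as the reference (adjusted p = 0.0497, limma) and not with Faah (adjusted p = 0.119). Of all genes, 60.1% passed as lower than Mgll, the side that passed here, and 29.9% as higher than Faah. Dagla against Daglb likewise passed from 1 side, and the other 4 pairs from neither. Of all 21 pairs, 13 passed with either gene as the reference, 2 with 1 of them and 6 with neither. Abhd6 was higher than Napepld by 1.26 on the log2 scale (2.40-fold, 4 of 4 libraries), the widest gap per length. Without length correction that gap was 0.44, and Napepld was farthest from Cnr1, at -1.69. For each of the 7 genes as the reference, between 23.9% and 45.2% of all genes passed as higher and between 38.6% and 62.8% as lower, so a pair that differs is common at these levels. Pairs passing from both sides numbered 8 without replicate 4 and 16 without replicate 3.

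Between libraries, 5 of the 7 members tested were highest in replicate 3, namely Dagla, Daglb, Abhd6, Napepld and Faah. Of all genes tested, 21.9% were highest in that library, 27.1% in replicate 1, 29.9% in replicate 2 and 21.2% in replicate 4. Cnr1 went the other way and was lowest in replicate 3, as were 37.5% of all genes. Against the mean of the other libraries on the log2 scale, replicate 3 was at 0.64 for Dagla, 0.60 for Napepld, 0.45 for Faah, 0.39 for Abhd6, 0.19 for Mgll and 0.15 for Daglb, and at -0.29 for Cnr1. A difference as large as that of Dagla was seen there in 3.29% of all genes and one as large as that of Napepld in 3.55%. For Cnr1, 17.1% of genes were as far or farther below. The median gene was at -0.05.

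Replicate 3 also stood apart by markers of neighbouring regions. The 5 thalamus markers summed to 311 FPKM there, against 22.9, 15.8 and 53.2 FPKM in replicates 1, 2 and 4. Prkcd, a protein kinase gene of thalamic relay neurons, had 172 FPKM in replicate 3 and 3.72 to 13.4 FPKM elsewhere. The 3 lateral hypothalamus markers summed to 170 FPKM in replicate 3 and to 440 to 758 FPKM in the others, and the 4 parasubthalamic markers to 293 FPKM and 328 to 466 FPKM. Oligodendrocyte markers were also highest in replicate 3, at 7928 FPKM against 5472, 6307 and 7384 FPKM in replicates 1, 2 and 4. The sum of 5 neuron markers lay between 1786 and 1983 FPKM in all 4 libraries. The part of these regions and cells in the members' levels was not tested. Mgll and Faah were both higher in replicates 3 and 4 than in replicates 1 and 2, as the oligodendrocyte and thalamus sums were.

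**Figure D3:**
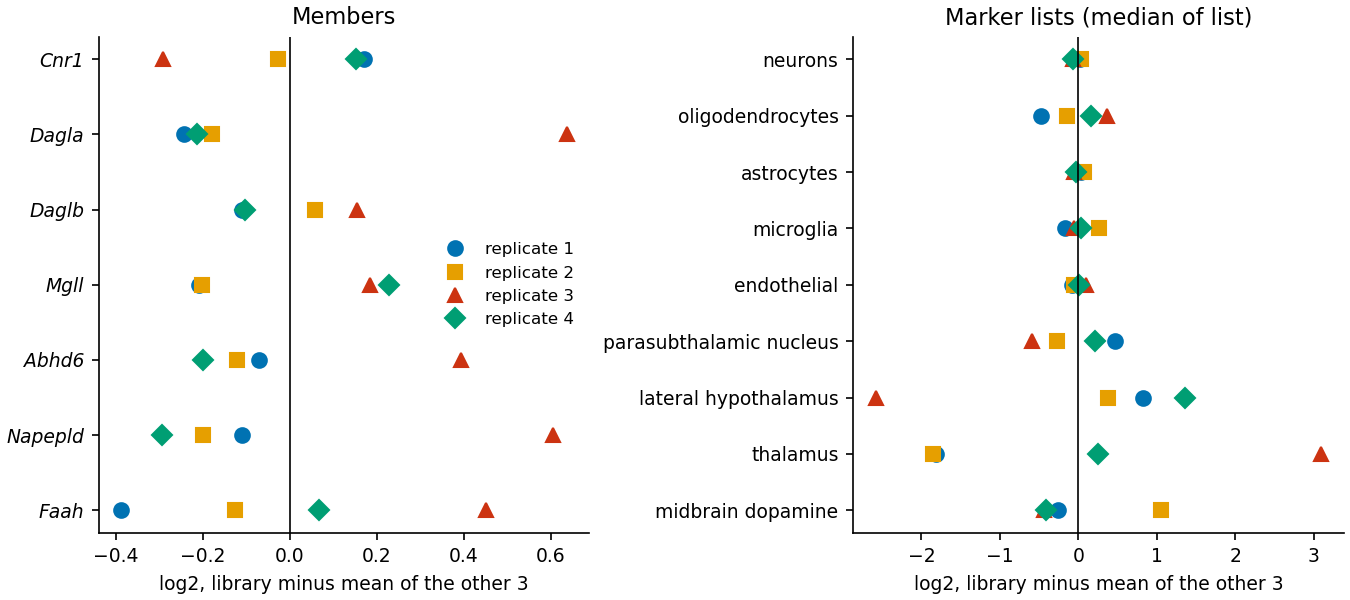
Each library's difference from the mean of the other 3 on the log2 scale, for the 7 members tested (left) and as the median of each marker list (right). Replicate 3 is the highest library for 5 members and the lowest for Cnr1, and is highest for the thalamus list and lowest for the lateral hypothalamus list.

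The limma variance test, which asks whether a gene varies between libraries more than genes of like level, called none of the 7 members. It called 0 of 15383 genes (0% of those tested), with 334 at an unadjusted p under 0.05, none of them a member. Dagla had the largest ratio of its variance to that of like genes among the members, 5.74, at percentile 92.8 of all genes (limma, adjusted p = 0.993). Napepld followed at 4.42 and Faah at 4.39, while Daglb was at 0.47. The test also called none of the genes simulated with a large shift in 1 library after adjustment, so its count of 0 says nothing of how much the members vary.

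Genes with the pattern over the 4 libraries most like that of each member were found by the root mean square difference of log2 levels, each centred on its own mean, among 12544 genes of 1 FPKM or more. For Cnr1 these were Rundc3b (0.0080), Pop1 (0.014), Cpne1 (0.014), Pigf (0.014) and Prps1 (0.016). For Faah it was Grm3, a metabotropic glutamate receptor gene, at 0.0084, and for Abhd6 Fgf9, a growth factor gene, at 0.0043. The nearest gene was Samd5 for Dagla (0.017), Rnaseh2b for Daglb (0.0070), Tuft1 for Mgll (0.010) and Rflnb for Napepld (0.017). Within 0.05 of Daglb lay 407 genes (3.24%), of Cnr1 220 (1.75%), of Dagla 17 (0.136%) and of Napepld 6 (0.0478%). The spread of these members about their own mean, by the same measure, was 0.084, 0.14, 0.28 and 0.27 in the same order. How close the nearest gene lies for genes in general was not computed, so these matches cannot be read as particular to the members.

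Other genes of the pathway were taken from a list of 46, of which 42 passed the filter on level. Against Cnr1, 18 were higher, 19 were lower and 5 did not pass, while 27.4% of all genes were higher and 62.4% lower. Their median log2 difference from Cnr1 was -0.20, against -1.02 for all genes tested. Without length correction 13 were higher and 23 lower, 5 of the 42 changed sign, named below, and the median of all genes moved to -1.73.

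Genes of the 3 listed proteins that bind CB1 were all higher than Cnr1 per length, against 27.4% of all genes. Gprasp1, whose product sorts receptors to lysosomes, had 164, 152, 119 and 156 FPKM in replicates 1 to 4, a log2 difference from Cnr1 of 3.45 (adjusted p = 3.21e-06, limma). Cnrip1, the CB1 interacting protein, had 34.5, 36.6, 29.4 and 38.3 FPKM (1.36, adjusted p = 3.67e-05, limma). Both were lowest in replicate 3, as were Cnr1 and 37.5% of all genes tested. Sgip1, whose product slows the internalisation of CB1, averaged 22.1 ± 1.95 FPKM (SD, n = 4) and was at 0.71 (adjusted p = 0.00217, limma). Its lowest library was replicate 1, at 19.4 FPKM. Without length correction Cnrip1 changed sign and did not pass, at -0.06.

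Of the 4 G protein subunits tested through which CB1 can act, 3 were higher than Cnr1, against 27.4% of all genes. Gnao1, Gnai2 and Gnai1 averaged 135 ± 5.13, 119 ± 10.8 and 63.5 ± 4.01 FPKM (SD, n = 4), log2 differences from Cnr1 of 3.32, 3.13 and 2.24, each higher in 4 of 4 libraries. Gnai3 was close to Cnr1 at 11.9 ± 0.570 FPKM and did not pass (-0.17, adjusted p = 0.125, limma). Without length correction it passed as lower, at -0.996 (adjusted p = 0.000142, limma). Of the potassium channel subunits that these G proteins open, Kcnj6 was lower, with 1.37, 2.75, 1.73 and 2.17 FPKM in replicates 1 to 4 (-2.72, adjusted p = 6.80e-05, limma). Kcnj9 and Kcnj3, at 18.0 ± 5.08 and 11.6 ± 2.61 FPKM, did not pass, and Kcnj9, at 0.39 on the log2 scale, changed sign without length correction, at -0.20. Kcnj9 had 25.2 FPKM and Kcnj3 15.2 FPKM in replicate 3, their highest library.

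Upstream of 2-AG, receptors coupled to Gq act through phospholipase C to make the diacylglycerol that the lipases cut. Of 10 such genes 3 were higher than Cnr1, 6 were lower and 1 did not pass, shares near the 27.4% and 62.4% of all genes. Plcb4, a phospholipase C beta gene, had 23.6, 24.2, 42.7 and 22.9 FPKM in replicates 1 to 4 (1.03, adjusted p = 0.00931, limma), and replicate 3 stood far above the rest, as for Dagla. Gna11 and Gnaq, the Gq class subunits, averaged 30.4 ± 1.32 and 22.6 ± 1.77 FPKM (SD, n = 4) and were at 1.18 and 0.75. Grm5, a glutamate receptor gene, had 9.53, 8.13, 7.07 and 9.72 FPKM, lowest in replicate 3, and was lower than Cnr1 (-0.64, adjusted p = 0.000591, limma), but did not pass without length correction, at -0.18 (adjusted p = 0.0791, limma). Over the whole list, 7 of 42 genes were highest in replicate 3 and 16 were lowest there, against 21.9% and 37.5% of all genes.

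Among genes of other routes to anandamide, 4 of 9 tested were higher than Cnr1, 4 were lower and 1 did not pass. Of all genes, 27.4% were higher and 62.4% lower. Gde1, a phosphodiesterase gene of the route through glycerophospho-anandamide, had 135, 131, 146 and 138 FPKM, a log2 difference from Cnr1 of 3.35 (10.2-fold, adjusted p = 5.83e-06, limma). Abhd4, which acts before it on that route, averaged 48.5 ± 0.461 FPKM (1.85), and Plaat3, an acyltransferase and phospholipase gene, 24.7 ± 0.870 FPKM (0.88). Without length correction Plaat3 did not pass, at 0.16. Gdpd1, a lysophospholipase D gene, was at 22.7 ± 0.766 FPKM (0.76), but turned to -0.55 without length correction and passed as lower. Plaat1, the gene that did not pass, was at 13.3 ± 0.863 FPKM, and passed as lower without length correction, at -0.996. Pla2g4e, a calcium-dependent acyltransferase gene for the anandamide precursor, was among the lower at 0.824 ± 0.175 FPKM.

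Among further degrading enzymes Abhd12, another serine hydrolase that can cut 2-AG and is best known as a lysophosphatidylserine lipase, had 155, 149, 151 and 151 FPKM. Its log2 difference from Cnr1 was 3.49 (11.2-fold, adjusted p = 4.05e-06, limma), and it varied little between the libraries. Naaa, the acid amidase of related lipids, was slightly lower than Cnr1 at 10.1 ± 1.34 FPKM (-0.41, adjusted p = 0.0245, limma). Genes of enzymes that oxidise endocannabinoids were low. Alox12 was at 0.417 ± 0.0831 FPKM and Ptgs2, the cyclooxygenase COX-2 gene, at 0.396 ± 0.0815 FPKM, both listed above 0 in every library.

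All 4 genes of intracellular lipid carriers were higher than Cnr1 per length, against 27.4% of all genes. Fabp5, a fatty acid binding protein gene, had 106, 105, 122 and 105 FPKM (3.02, adjusted p = 1.01e-05, limma), and near-identical copies of this gene in the genome could share its reads. Fabp3, Scp2 and Fabp7 averaged 49.5 ± 2.69, 48.1 ± 0.771 and 45.3 ± 5.60 FPKM (SD, n = 4), at 1.88, 1.84 and 1.74. Fabp3 and Fabp7, which have short transcripts, changed sign without length correction, at -0.93 and -0.97. Other receptors to which these lipids bind were all below Cnr1 where tested, 4 of 4, as were 62.4% of all genes. The highest was Pparg at 0.211 to 0.459 FPKM, followed by Trpv1, the capsaicin receptor gene, at 0.207 ± 0.0989 FPKM and Ppara at 0.153 ± 0.0615 FPKM.

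**Figure D4:**
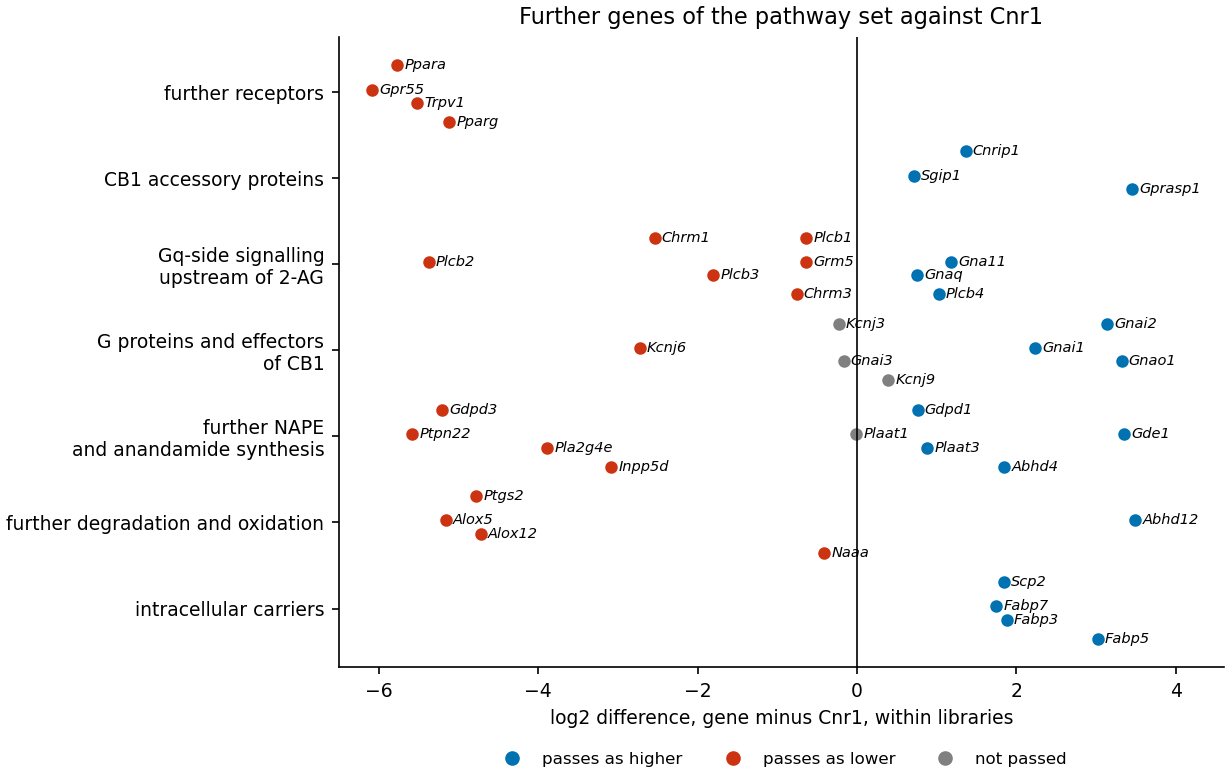
Difference of the further pathway genes from Cnr1 within libraries on the log2 scale, by role, with 1 of the 42 tested not shown; colours give the limma call with a threshold of 0.05 on the adjusted p. The 3 CB1 accessory genes and the 4 carrier genes lie right of 0 and the 4 further receptors left of it, per transcript length.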

How the data were processed

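Tissue RNA of the 4 samples was obtained with TRIzol, and a dual-mode mRNA kit was used for the libraries, per the labels' protocols. The build is GRCm38, per the submitters' processing notes, and the aligner, counting program, annotation and strand setting were not given in the sources used here. Values as deposited by the authors were taken to be FPKM from their behaviour: they hold fractions, they sum to different totals (428612 to 442836), and low values fall at multiples of a step that depends on transcript length. Of low values, 37.6% to 43.6% lay within 0.1 of a whole step, against 20% if evenly spread, so reads were not recovered and counting intervals were not computed. The column of replicate 3 is headed with a letter in place of its number and was assigned by its title.

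Coordinates and names were taken from GENCODE M21, where a match was found for 22022 of 22036 Ensembl identifiers. The 3008 loci without one were left out. The 15383 genes whose mean reached 0.1 FPKM were tested as log2(FPKM + 0.1), a scale on which low genes differ by less than they should. Each gene was set against a reference gene by limma 3.58.1 in R 4.3.3, on differences within libraries, two-sided, with Benjamini-Hochberg adjustment over the other genes and a threshold of 0.05. The prior degrees of freedom could not exceed 1.94, as found when each gene's own level was fitted. On simulated data the test against a reference gene recovered most shifted genes, while the variance test between libraries called none after adjustment. Since the spread of the reference gene enters every difference, pairs were run from both sides. Whether the replicates came from separate animals is not stated in the labels, so the spread behind each p-value is that of these samples alone and may be technical.

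The members and lists were chosen with earlier results of these data known. The text names all members, the 3 most abundant further genes of each role, every gene higher than Cnr1, and the genes of most like pattern. Other names were chosen after their values were seen. Values of 1 further pathway gene and 1 marker gene are not reported here singly, and both remain in the counts and sums of their lists. Alternatives were other added values, filters and priors, no length correction, and leaving out each library. Tables were handled in pandas 2.3.3 and numpy 2.4.6 under Python 3.11.15, and plots drawn in matplotlib 3.10.9.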

Additional observations from a re-analysis of the deposited data

Results flagged for a closer look

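Dixon's test set 1 library apart from the rest for 6 of 49 levels, against about 5% by chance, and the levels are not independent of each other. The share of all genes set apart in this way was not computed, so the count cannot be read as an excess over genes in general. In replicate 3 these were Dagla at 11.7 FPKM, Napepld at 8.29 FPKM, the phospholipase gene Plcb4 at 42.7 FPKM and the carrier gene Fabp5 at 122 FPKM. In replicate 1 they were Gdpd3 at 0.446 FPKM and Ptpn22 at 0.412 FPKM, both low genes. Thalamus markers were highest in replicate 3, and markers of spinal cord and caudal hindbrain summed to 16.5 FPKM in replicate 1, against 0.0745 to 0.361 FPKM elsewhere. The part of such tissue in these levels was not tested.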

How the results depend on the processing

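The absence of an enzyme passing as higher than Cnr1 held under all alternatives run, and the count of lower enzymes was 2 to 4 when a library was left out and 5 without length correction. Of further pathway genes 18 were higher when any library was left out and 18 to 21 were lower, while 8 were lower with a filter at 1 FPKM, where fewer genes are tested, and 13 were higher and 23 lower without length correction. Pairs of members passing from both sides numbered 8 to 16 when a library was left out. Without length correction the order changed most: Abhd6 turned to -1.25 against Cnr1, -0.64 against Mgll, -0.81 against Faah and -0.53 against Dagla, its gap over Napepld was 0.44, and Mgll turned to -0.17 against Faah. When a library was left out, Mgll against Cnr1 ranged between -0.19 and 0.027, with the sign turned without replicate 1, and Abhd6 against Cnr1 between -0.045 and 0.21, with the sign turned without replicate 3; the cause was not tested. With 0.01 FPKM added, or the limma prior left without a limit, Dagla over Napepld no longer passed, at 0.47 in both, and 11 and 12 pairs passed; it also did not pass without replicate 1 (0.50), 2 (0.46) or 4 (0.45). With a prior with a trend on level, chosen after seeing the data, 13 pairs passed. No paired analysis was possible because there is 1 group. Depth limits Cnr2, at a few fragments a library by a rough estimate.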
